A study of Mus musculus with 6 samples.

Results

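The genes described here carry out fatty acid oxidation, make or use ketone bodies, activate fatty acids, or belong to the PPAR receptors and their known targets. They are 39 named genes, chosen by symbol from the 52249 genes of the deposited table, and all 39 were found there. Their transcripts were counted at the 3′ end in 6 libraries made from intestinal organoids of Apc-knockout mice. Organoids are epithelial cultures that grow from intestinal stem cells. Both groups were labelled Apc-knockout, Apc being a tumour suppressor that restrains WNT signalling. The control group held 3 libraries of Apc-knockout organoids, and the other group held 3 libraries of Apc-knockout organoids with IGF2BP3 overexpression, IGF2BP3 being an RNA-binding protein. No treatment or time point was given by the labels, and the mouse strain, age, overexpression construct and number of animals or clones are not given in the sources used here. The series title places the question in adenoma cell growth and MYC expression. Organoids with intact Apc were not analysed here.

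Fatty acids are first coupled to coenzyme A by acyl-CoA synthetases and carried into mitochondria by the carnitine shuttle. There they are shortened in rounds of dehydrogenation, hydration, a further dehydrogenation and thiolysis, and the electrons of the first step pass through the electron transfer flavoprotein to the respiratory chain. The acetyl-CoA produced can be turned into ketone bodies, which intestinal stem cells and other tissues make and use. PPAR receptors are nuclear receptors that bind fatty acids and switch on many of these genes, and in the intestine they are known for their part in the absorption of dietary fat and in stem cell metabolism.

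Total counts ran from 2180116 to 2519917 per library, and all control libraries lay below all libraries of the other group. Counts of Igf2bp3 itself were 1, 0 and 0 in control and the same in the libraries labelled as overexpressing, so the counts do not check the label, and the second group is called OE-labelled below. Apc had 182, 174 and 164 counts in control and 158, 151 and 148 in OE-labelled organoids and was itself called lower (log2 ratio -0.37, adjusted p = 0.0323 by edgeR), a call lost with DESeq2 (adjusted p = 0.0753) and with an offset for GC content (edgeR adjusted p = 0.221). Which part of Apc was deleted is not given in the sources used here, so these 3′ reads do not check the knockout. The library names form one series for control and another for OE-labelled samples, so that library series and overexpression cannot be told apart. Spread differed between the groups, with a biological coefficient of variation of 3.14% among control and 17.2% among OE-labelled libraries. Nothing in the labels says that the libraries of a group came from separate cultures or animals, so the p-values measure only the spread between these libraries. Levels are given as CPM, read counts scaled to a common library size with TMM factors, and changes as the log2 fold change (log2 ratio) of OE-labelled over control with its standard error (SE). A gene is called higher or lower where its edgeR adjusted p was below 0.05.

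Of the 39 genes, 32 had enough counts to be tested. OE-labelled libraries had 12 of these higher and 5 lower, and 15 were not called. The called share was 53.1%, where 29.2% of all 10687 tested genes were called. Higher genes made up 37.5% against a background of 16.5%, and lower genes 15.6% against 12.7%. The median log2 fold change of the 32 genes was 0.10, beside 0.04 over all tested genes. Control and OE-labelled CPM ranges were fully separate for 20 of the 32 genes (62.5%, beside 45.7% of all tested genes). These shares describe the list and were not tested. The 18 listed genes of the mitochondrial oxidation route, from the carnitine shuttle to electron transfer, had 9 higher, 1 lower and 8 uncalled genes. Their median log2 fold change was 0.40. Higher genes made up 50% of the 18, beside 16.5% of all tested genes, and lower genes 5.56% beside 12.7%. With DESeq2 only Acadvl and Acaa2 of the 9 higher genes stayed called. With an offset for GC content, described below, Acads, Hadha, Hadh and Etfb lost their calls. A change of at least 2-fold among called genes was reached by Acaa2 and Pparg only, which is 6.25% of the list, beside 5.38% of all tested genes.

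**Figure D1:**
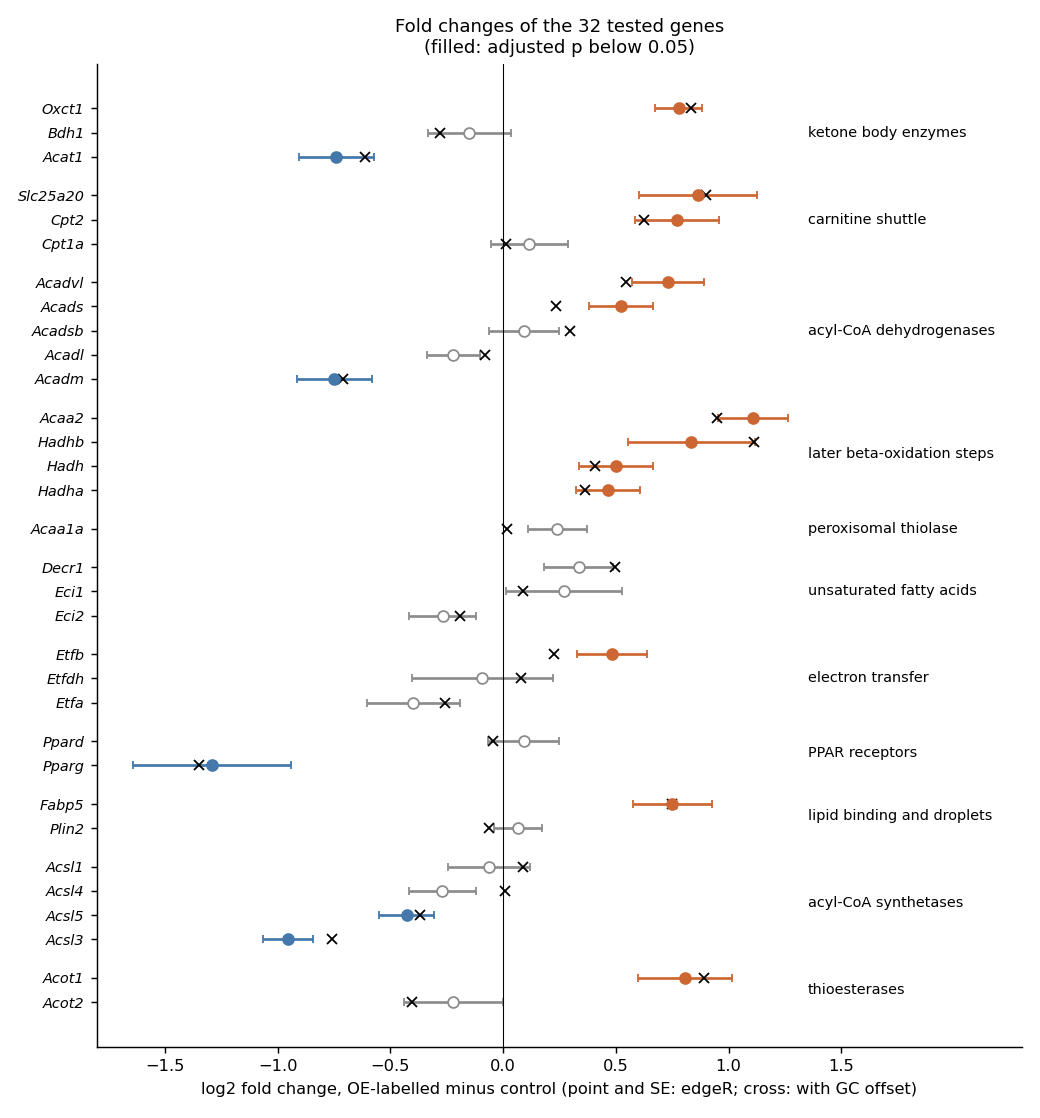
The log2 fold change of each of the 32 tested genes (x axis, OE-labelled minus control) is plotted by functional group, with edgeR standard errors. Filled points mark the 17 called genes, and crosses give the value with an offset for GC content. The 4 genes of the later beta-oxidation steps all lie to the right of 0, and the 4 acyl-CoA synthetases lie to the left of 0 without the offset.

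In ketone body metabolism the called genes went in opposite directions. Oxct1 encodes the transferase that begins the use of acetoacetate in mitochondria. It was measured at 184, 205 and 184 CPM in the control libraries and at 340, 306 and 337 CPM in OE-labelled replicates 1 to 3. All OE-labelled values exceeded all control values. Oxct1 (plus strand of chromosome 15, 4026383 to 4155344 in GRCm38) rose 1.72-fold, a log2 ratio of 0.78 (SE 0.10, adjusted p = 0.000324 by edgeR). Acat1, the mitochondrial thiolase that joins or splits acetoacetyl-CoA, was measured at 55.8, 68.5 and 58.5 CPM in control organoids and 28.0, 40.9 and 40.6 CPM in OE-labelled organoids. The groups did not overlap, and OE-labelled replicate 1 was the lowest of the 6 libraries. Acat1 dropped by 0.74 log2 units (SE 0.17, adjusted p = 0.0062 by edgeR). Bdh1, which interconverts acetoacetate and beta-hydroxybutyrate, had 27.7 ± 3.38 CPM in control organoids and 24.9 ± 4.05 CPM in OE-labelled organoids (SD, n = 3) and was not called (edgeR adjusted p = 0.576).

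The ratio of Oxct1 to Acat1 counts within a library was 3.30, 2.99 and 3.15 in control organoids and 12.2, 7.49 and 8.30 in OE-labelled organoids. The ratio was thus higher in every OE-labelled than in every control library, and it does not depend on how libraries were scaled. Hmgcs1, which is not one of the 39 genes and serves cholesterol synthesis, changed from a mean of 841 ± 14.3 to one of 676 ± 53.8 CPM (SD, n = 3), with a log2 ratio of -0.32 (SE 0.10, adjusted p = 0.0256 by edgeR). An offset for GC content, described below, gave Hmgcs1 a log2 ratio of -0.12 (edgeR adjusted p = 0.429).

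**Figure D2:**
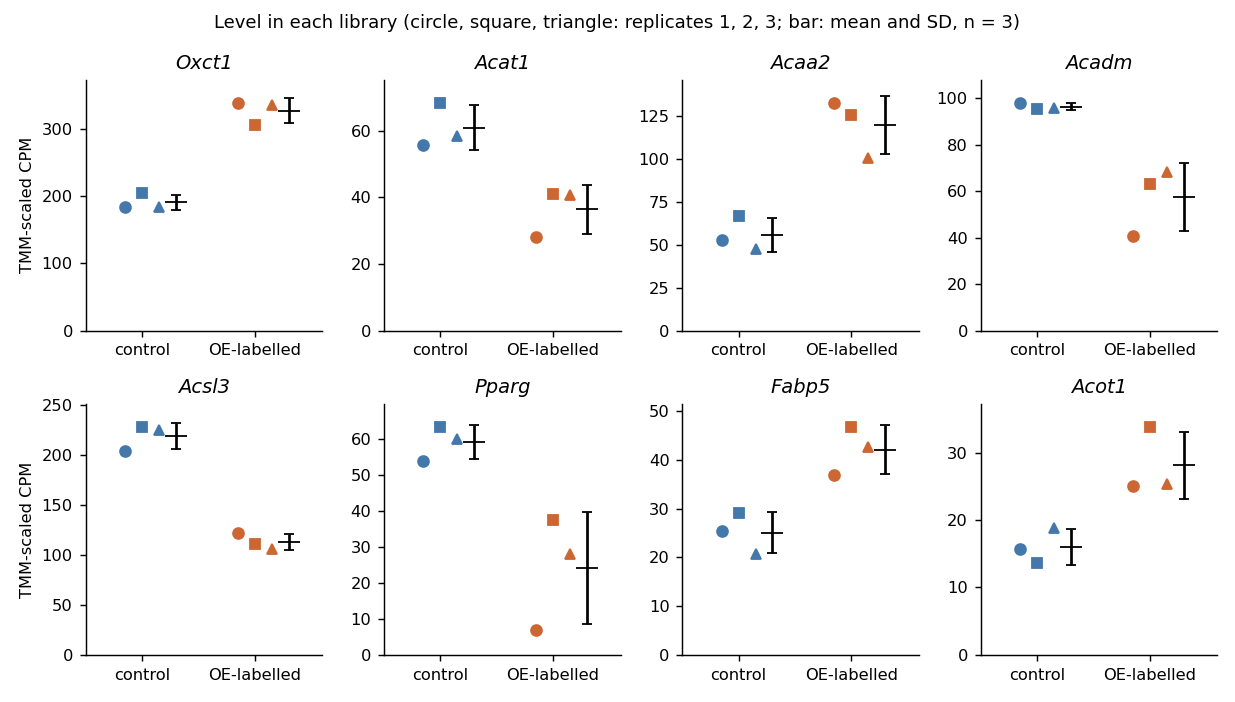
The TMM-scaled CPM (y axes, each starting at 0) of 8 genes is plotted for each library, with the mean and SD of each group (n = 3). Oxct1, Acaa2, Fabp5 and Acot1 are higher and Acat1, Acadm, Acsl3 and Pparg lower in each of the 3 OE-labelled libraries than in each control library. OE-labelled replicate 1 lies below the other 2 for Pparg, at 6.89 CPM.

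The carnitine shuttle moves long-chain acyl groups across the inner mitochondrial membrane. Cpt1a encodes the enzyme of the outer membrane that sets the rate of entry. Its levels overlapped between groups (40.3 to 47.9 CPM in control, 37.7 to 58.3 CPM in OE-labelled libraries), and it was not called (log2 fold change 0.12, SE 0.17, adjusted p = 0.644 by edgeR). Both later members rose. Cpt2, which returns the acyl group to coenzyme A inside the mitochondrion, was measured at 16.1, 14.1 and 16.6 CPM in control organoids and 24.7, 29.1 and 26.2 CPM in OE-labelled organoids. The OE-labelled libraries were all higher, with a log2 ratio of 0.77 (SE 0.19, adjusted p = 0.00875 by edgeR). Slc25a20, the carrier that exchanges carnitine for acylcarnitine, was measured at 14.7, 10.3 and 11.98 CPM in control organoids and 15.8, 22.4 and 29.6 CPM in OE-labelled organoids. The lowest OE-labelled value lay close to the highest control value. Its log2 fold change was 0.87 (SE 0.26, adjusted p = 0.0256 by edgeR). Both calls were lost with DESeq2 (adjusted p = 0.0513 for Cpt2 and 0.0624 for Slc25a20). The call of Slc25a20 was also lost without control replicate 2 (edgeR adjusted p = 0.107), control replicate 3 (0.0905), OE-labelled replicate 2 (0.0676) or OE-labelled replicate 3 (0.0759).

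The acyl-CoA dehydrogenases, which carry out the first step of each round on chains of different length, were split. Acadvl, for very long chains, was measured at 38.7, 40.8 and 35.9 CPM in control organoids and 65.6, 74.7 and 51.2 CPM in OE-labelled organoids. Acads, for short chains, was measured at 48.9, 46.9 and 49.3 CPM in control organoids and 77.0, 73.9 and 57.5 CPM in OE-labelled organoids. For both genes OE-labelled replicate 3 was the lowest of its group and still above every control library. The log2 fold change was 0.73 for Acadvl (SE 0.16, adjusted p = 0.00503 by edgeR) and 0.52 for Acads (SE 0.14, adjusted p = 0.0162 by edgeR).

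Acadm, for medium chains, moved the other way. It was measured at 98.2, 95.2 and 95.8 CPM in control organoids and 40.9, 63.3 and 68.1 CPM in OE-labelled organoids. The control libraries lay within 3 CPM of each other and above all OE-labelled libraries. Acadm dropped by 0.75 log2 units (SE 0.17, adjusted p = 0.00544 by edgeR). Acadl, for long chains, had 154 ± 4.93 CPM in control organoids and 132 ± 17.1 CPM in OE-labelled organoids (SD, n = 3) and was not called (edgeR adjusted p = 0.182). Acadsb, which acts on short branched chains, was not called either (log2 fold change 0.09, SE 0.16, adjusted p = 0.69 by edgeR). The summed level of the 5 dehydrogenases was 384 ± 4.38 CPM in control organoids and 373 ± 39.1 CPM in OE-labelled organoids (SD, n = 3). Acads lost its call with the GC offset (log2 ratio 0.23, edgeR adjusted p = 0.221), with DESeq2 (adjusted p = 0.0686), and without any 1 of the control libraries or OE-labelled replicate 2 (edgeR adjusted p from 0.0593 to 0.0825).

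All 4 genes of the later steps of beta-oxidation were called higher. Acaa2, the mitochondrial thiolase that releases acetyl-CoA, had the largest rise among the 32 genes. It was measured at 52.5, 66.6 and 47.5 CPM in control organoids and 133, 126 and 101 CPM in OE-labelled organoids. Every OE-labelled library exceeded every control library, and the log2 fold change was 1.11 (SE 0.15, adjusted p = 0.000405 by edgeR). Hadha and Hadhb encode the alpha and beta subunits of the mitochondrial trifunctional protein, which handles long chains, and lie head to head on chromosome 5. Hadha was measured at 128, 110 and 105 CPM in control organoids and 189, 137 and 146 CPM in OE-labelled organoids. Hadhb rested on fewer reads, with 11, 20 and 23 counts in control organoids and 31, 39 and 40 counts in OE-labelled organoids.

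Neither subunit gene overlapped between groups, although the ratio of Hadha to Hadhb counts did (9.87 to 25.2 in control, 8.65 to 15.1 in OE-labelled libraries). The log2 fold change was 0.47 for Hadha (SE 0.14, adjusted p = 0.0256 by edgeR) and 0.83 for Hadhb (SE 0.28, adjusted p = 0.041 by edgeR). Hadh, the dehydrogenase for shorter chains, was measured at 82.0, 70.4 and 78.8 CPM in control organoids and 90.3, 140 and 96.4 CPM in OE-labelled organoids. OE-labelled replicate 2 stood above the other 2 libraries of its group. The log2 fold change of Hadh was 0.50 (SE 0.16, adjusted p = 0.0362 by edgeR). Summed over the 4 genes, the level was 267, 256 and 241 CPM in control organoids and 425, 418 and 360 CPM in OE-labelled organoids. DESeq2 called Acaa2 but not Hadha, Hadhb or Hadh (adjusted p = 0.0629, 0.138 and 0.0759), and each of these 3 calls was also lost in at least 3 of the 6 fits that left out a library (edgeR adjusted p from 0.0542 to 0.207). Without OE-labelled replicate 1 the value for Hadha was 0.26, and without OE-labelled replicate 2 that for Hadh was 0.25.

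**Figure D3:**
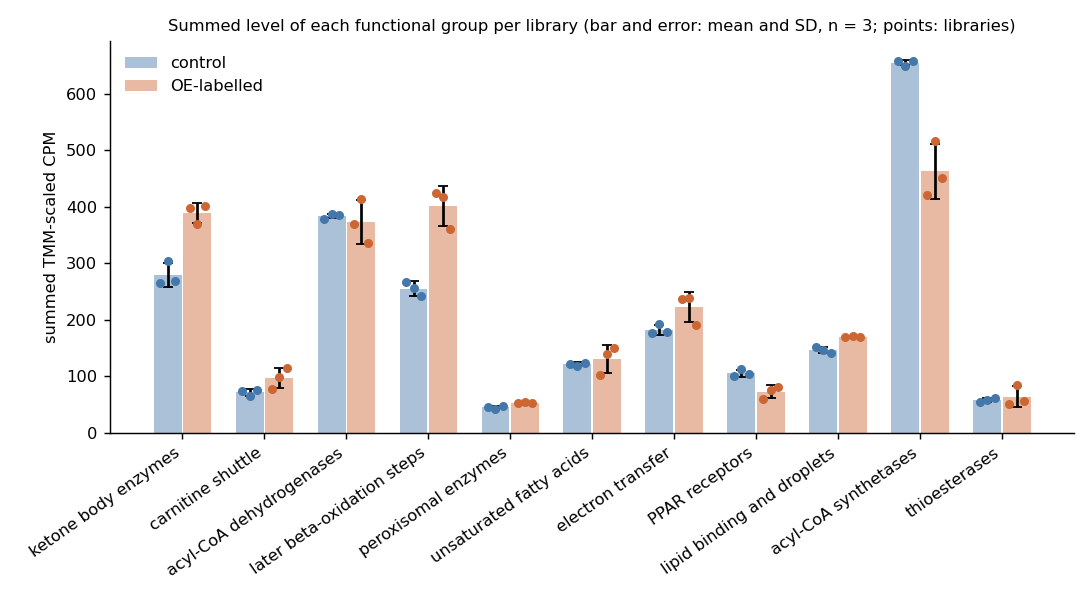
The summed TMM-scaled CPM of each functional group (y axis) is plotted for control and OE-labelled libraries, with bars for the mean, error bars for the SD (n = 3) and a point per library. The later beta-oxidation steps, ketone body enzymes, carnitine shuttle, peroxisomal enzymes and lipid-binding group sum to higher levels in all OE-labelled libraries. The acyl-CoA synthetases and PPAR receptors sum to lower levels, and the remaining groups, among them the acyl-CoA dehydrogenases, overlap. The ketone body sum is mostly Oxct1, while Acat1 was called lower and Bdh1 was not called.

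The auxiliary enzymes that prepare unsaturated fatty acids were not called. Decr1, a reductase, had 31.96 ± 3.21 CPM in control organoids and 40.3 ± 3.06 CPM in OE-labelled organoids (SD, n = 3, log2 fold change 0.34, edgeR adjusted p = 0.117). The isomerase genes Eci1 and Eci2 had log2 fold changes of 0.27 (SE 0.26, adjusted p = 0.456 by edgeR) and -0.27 (SE 0.15, adjusted p = 0.193 by edgeR). Eci1 was measured at 27.5, 55.8 and 67.2 CPM in OE-labelled libraries, with replicate 1 below and the others above the control range of 35.03 to 47.0 CPM. Without OE-labelled replicate 1, Eci1 had a log2 ratio of 0.51 (edgeR adjusted p = 0.016). With the GC offset, Decr1 passed at a log2 ratio of 0.50 (edgeR adjusted p = 0.0342).

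Of the electron transfer genes, Etfb was called higher and the others were not called. Etfb, the beta subunit of the flavoprotein, was measured at 128, 129 and 123 CPM in control organoids and 206, 197 and 129 CPM in OE-labelled organoids. OE-labelled replicate 3 lay within the control range, and the log2 fold change was 0.48 (SE 0.16, adjusted p = 0.0342 by edgeR). Etfa, the alpha subunit, was measured at 35.03, 46.9 and 42.8 CPM in control organoids and 23.9, 28.7 and 42.3 CPM in OE-labelled organoids, and it was not called (log2 fold change -0.40, SE 0.21, adjusted p = 0.167 by edgeR). Etfdh, the dehydrogenase that passes the electrons on to ubiquinone, had 14.1 ± 2.03 and 13.2 ± 6.32 CPM (SD, n = 3, edgeR adjusted p = 0.852). The call of Etfb was the least stable of the 17: it was lost in 9 of 16 alternatives, with the GC offset (log2 ratio 0.22, edgeR adjusted p = 0.282) and without any 1 library except OE-labelled replicate 3 (edgeR adjusted p from 0.0894 to 0.169). Etfb also shares sequence with an overlapping gene model, described below.

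Among the receptors, Pparg was lower in OE-labelled libraries and had the largest change of the 32 genes in either direction. Pparg encodes PPAR-gamma, a receptor known for fat cell formation that is also expressed in intestinal epithelium. The gene lies on the plus strand of chromosome 6, from 115360951 to 115490399 in GRCm38. Its counts were 117, 135 and 130 in control organoids and 17, 95 and 66 in OE-labelled organoids. This gives 53.9, 63.3 and 59.9 CPM in control organoids and 6.89, 37.4 and 27.9 CPM in OE-labelled organoids. The highest OE-labelled value lay below the lowest control value, while OE-labelled replicate 1 stood far below the other 2. Pparg dropped by 1.29 log2 units (SE 0.35, adjusted p = 0.0155 by edgeR), and by 0.90 without OE-labelled replicate 1 (edgeR adjusted p = 0.000262). DESeq2 did not call it (adjusted p = 0.116), nor did edgeR without control replicate 2 (0.0646) or without control replicate 3 (0.0594).

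Ppard, which encodes PPAR-delta, was measured at 45.3 ± 2.23 CPM in control organoids and 48.3 ± 8.45 CPM in OE-labelled organoids (SD, n = 3) and was not called (log2 fold change 0.09, SE 0.16, adjusted p = 0.698 by edgeR). Ppara, which encodes PPAR-alpha, the main receptor of the liver's response to fasting, had 5, 2 and 1 counts in control organoids and 1, 1 and 1 counts in OE-labelled organoids. That is too few to test. Adipocyte markers stood at 0 in all 6 libraries (Adipoq, Lep, Plin1, Fabp4 and Cfd).

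Several textbook PPAR targets were at or near the limit of detection in both groups. Fabp1 and Cd36, which bind and take up fatty acids, and Pdk4, a kinase that restrains pyruvate oxidation, had 0 counts in all 6 libraries. A count of 0 allows up to 3 counts, which is 1.18 to 1.41 CPM depending on the library. Angptl4, a secreted inhibitor of lipoprotein lipase, had 3 counts in OE-labelled replicate 3 and 0 elsewhere. Fabp2, the fatty acid-binding protein of enterocytes, had 1, 0 and 0 counts in control organoids and 2, 1 and 3 counts in OE-labelled organoids. Ehhadh, a peroxisomal bifunctional enzyme, had 2 counts in 1 library of each group and 0 in the others. No change can be stated for these genes at this depth.

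Of the targets with enough counts, Fabp5 was called and Plin2 was not. Fabp5, a fatty acid-binding protein of epithelia, was measured at 25.3, 29.1 and 20.7 CPM in control organoids and 36.9, 46.8 and 42.7 CPM in OE-labelled organoids. It was higher in every OE-labelled library, with a log2 ratio of 0.75 (SE 0.17, adjusted p = 0.00726 by edgeR). Plin2, the coat protein of lipid droplets, was measured at 125, 117 and 120 CPM in control organoids and 132, 124 and 124 CPM in OE-labelled organoids. The groups overlapped and Plin2 was not called (log2 fold change 0.07, SE 0.11, adjusted p = 0.667 by edgeR). The peroxisomal thiolase Acaa1a had 44.5 ± 2.01 and 52.6 ± 1.12 CPM (SD, n = 3). Its groups did not overlap, but it was not called (log2 fold change 0.24, SE 0.13, adjusted p = 0.18 by edgeR), and its value with the GC offset was 0.02.

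PPAR receptors bind, with a partner receptor, to a direct repeat. It was searched as 2 copies of AGGTCA in the same orientation with 1 base between them, on both strands, allowing at most 2 mismatches over the 12 bases. The search covered the 250 bases before each start site in the RefSeq promoter table (GRCm38.p6), which gave 38 promoters for 34 of the 39 genes. A match was found in 4 of these 38 promoters (10.5%), beside 3.24% of all 32851 promoters. None of the 16 promoters of the 14 called genes covered there held a match, including the 3 promoters of Pparg, so no promoter of a called gene is shown. With a match in 3.24% of all promoters, 16 are too few for this absence to set the called genes apart. The called genes Acaa2, Acat1 and Fabp5 had no promoter in that table. The 4 matches are printed because they show which genes hold the repeat, and they were chosen after the search. Each is written 5′ to 3′ on the strand where the repeat reads, with the repeat in capitals and 15 bases on either side.
Fabp1: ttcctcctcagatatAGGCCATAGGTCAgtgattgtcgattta
Cd36: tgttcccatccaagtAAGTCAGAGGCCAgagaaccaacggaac
Etfa: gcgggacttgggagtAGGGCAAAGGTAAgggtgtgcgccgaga
Plin2: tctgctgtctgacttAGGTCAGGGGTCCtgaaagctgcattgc

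The stretch at Fabp1 is chr6:71199797-71199839 (minus strand) and has 1 mismatch, in the first copy. The stretch at Cd36 is chr5:17835932-17835974 (plus strand), with 1 mismatch in each copy. That at Etfa is chr9:55512293-55512335 (plus strand), also with 1 mismatch in each copy, and that at Plin2 is chr4:86670257-86670299 (plus strand), with both mismatches in the second copy. The repeats cover bases 67 to 55, 63 to 51, 77 to 65 and 225 to 213 before the start sites of Fabp1, Cd36, Etfa and Plin2. All 4 read on the strand opposite to the gene. The start sites used for Cd36 and Fabp1 lie inside the spans of these genes. The span of Fabp1 begins at 71199827, within the stretch shown. Bases just after the start site of Cd36 were not found in a known transcript of Cd36, as they were for the other genes shown. Fabp1 and Cd36 had 0 counts in every library, and Etfa and Plin2 were tested and not called. A single copy of AGGTCA, on either strand, was present in 21.1% of the 38 promoters and in 14.0% of all promoters. A match of letters is not a binding site, and its absence from these windows says nothing about regulation from elsewhere.

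The acyl-CoA synthetases activate free fatty acids, and the 4 measured genes all had log2 fold changes below 0, though only 2 were called. Acsl3, a synthetase of the endoplasmic reticulum and lipid droplets, was measured at 204, 228 and 225 CPM in control organoids and 122, 111 and 106 CPM in OE-labelled organoids. Levels in OE-labelled libraries were 0.516 times those in control, with no overlap. Acsl3 (plus strand of chromosome 1, 78657825 to 78707743 in GRCm38) dropped by 0.95 log2 units (SE 0.11), the smallest adjusted p of the 32 genes (edgeR adjusted p = 0.000144). Acsl5, a synthetase abundant in intestine, was measured at 202, 188 and 183 CPM in control organoids and 127, 165 and 134 CPM in OE-labelled organoids. The groups did not overlap, and Acsl5 dropped by 0.43 log2 units (SE 0.12, adjusted p = 0.02 by edgeR). Its call was lost without control replicate 1, 2 or 3 (edgeR adjusted p = 0.096, 0.0707 and 0.06).

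Acsl4, which prefers arachidonic acid, had 212 ± 15.7 CPM in control organoids and 176 ± 38.5 CPM in OE-labelled organoids (SD, n = 3) and was not called (log2 fold change -0.27, edgeR adjusted p = 0.189). Acsl1 had 33.6 ± 6.12 and 32.1 ± 4.49 CPM (SD, n = 3, log2 fold change -0.06, edgeR adjusted p = 0.823). With the GC offset the values of Acsl4 and Acsl1 were 0.01 and 0.09. Summed over the 4 genes, the level was 658, 650 and 659 CPM in control organoids and 421, 517 and 451 CPM in OE-labelled organoids. The groups did not overlap.

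Thioesterases reverse the activation by releasing the free acid. The neighbouring paralogues Acot1 (cytosolic) and Acot2 (mitochondrial), lie on chromosome 12, and Acot1 alone was called. Acot1 was measured at 15.7, 13.6 and 18.9 CPM in control organoids and 25.1, 33.8 and 25.4 CPM in OE-labelled organoids. It was higher in every OE-labelled library, with a log2 ratio of 0.81 (SE 0.21, adjusted p = 0.0122 by edgeR). Acot2 was measured at 39.2, 44.6 and 41.9 CPM in control organoids and 26.3, 51.1 and 30.0 CPM in OE-labelled organoids. The groups overlapped and Acot2 was not called (log2 fold change -0.22, SE 0.22, adjusted p = 0.478 by edgeR). The ratio of Acot1 to Acot2 counts was 0.400, 0.305 and 0.451 in control organoids and 0.954, 0.662 and 0.845 in OE-labelled organoids, with no overlap. The call of Acot1 was lost without control replicate 1 or 2 or OE-labelled replicate 2 (edgeR adjusted p from 0.0516 to 0.067).

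Other genes of the same pathways were taken from a list of 80, of which 60 were tested. Of these, 17 were higher and 3 lower, a called share of 33.3%, beside the 29.2% of all tested genes. Higher genes made up 28.3% beside 16.5% of all tested genes, and lower genes 5% beside 12.7%. The median log2 fold change of the 60 genes was 0.26, beside 0.04 over all tested genes. These shares were not tested. Ucp2, Dgat2 and Acot7 were among the higher genes with the smallest p. Ucp2, a carrier of the inner mitochondrial membrane, rose from a mean of 127 ± 7.49 to one of 310 ± 46.3 CPM (SD, n = 3), or by 1.28 log2 units (SE 0.13, adjusted p = 5.94e-05 by edgeR). Dgat2, which makes triglycerides, rose by 1.103 (SE 0.15, adjusted p = 0.000361 by edgeR), and Acot7, a further thioesterase, by 1.29 (SE 0.18, adjusted p = 0.000418 by edgeR). The lower genes were Hmgcs1, Acad11 and Ncor1. Acad11, an acyl-CoA dehydrogenase, dropped by 1.12 log2 units (SE 0.35, adjusted p = 0.0302 by edgeR) from 27, 31 and 32 counts to 6, 19 and 22 counts. Ncor1, a corepressor of nuclear receptors, dropped by 0.29 (SE 0.10, adjusted p = 0.04 by edgeR). With the GC offset none of these 3 was called (adjusted p by edgeR from 0.0682 to 0.429), and 0 genes of the list were called lower without control replicate 1, 2 or 3 or OE-labelled replicate 2.

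Spread within the groups was uneven. For 26 of the 32 genes (81.2%) the CPM range was wider in OE-labelled than in control libraries, beside 67.9% of all tested genes. The median SD of log2 CPM was 0.12 in control organoids and 0.23 in OE-labelled organoids for these genes, and 0.15 and 0.23 over all tested genes. OE-labelled replicate 1 was the lowest of its group for 18 of the 32 genes and the highest for 10. Over all tested genes, it was the lowest for 36.8% and the highest for 36.2%. Without this library 16 of the 39 genes were called, 15 of them shared with the 17, as Etfb and Hadha were lost and Eci1 was gained. That fit tested 10876 genes in all, and the range of all calls in such fits is given below.

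**Figure D4:**
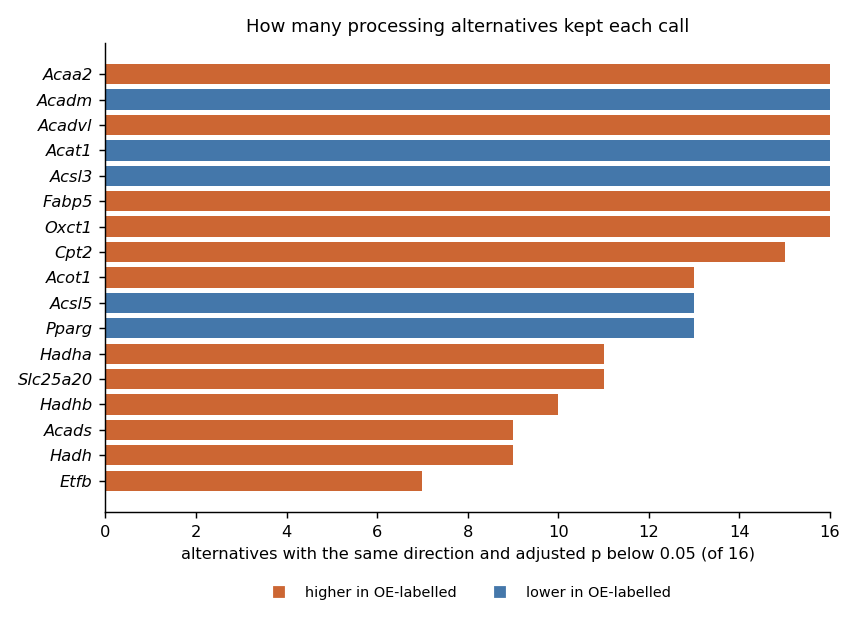
For each of the 17 called genes the bar gives the number of processing alternatives, out of 16, that kept its direction and an adjusted p below 0.05 (x axis), coloured by direction. Acaa2, Acadm, Acadvl, Acat1, Acsl3, Fabp5 and Oxct1 were kept in all 16, and Etfb in 7.

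Base composition moved with the fold changes. Across 10679 tested genes with a known transcript sequence, log2 fold change and GC content had a Spearman rho of 0.37, and across the 32 genes it was 0.31, as a description of points that share the same libraries. Median GC content was 51.2% for the 12 higher, 47.0% for the 15 uncalled and 47.6% for the 5 lower genes. With an offset for GC content 13 of the 17 calls were kept and Decr1 was gained. Acads, Etfb, Hadh and Hadha were lost, all of them higher genes of the mitochondrial oxidation route. Over all 10687 tested genes 2528 were called with the offset, beside 3118 without it.

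Cell type markers were compared because fewer cells of a type and less RNA per cell cannot be told apart in bulk libraries. Goblet cell markers summed to 590 to 614 CPM in control organoids and 1273 to 1488 CPM in OE-labelled organoids, with 3 of 5 tested markers higher. Most of this sum was Spink4, whose group mean went from 480 to 1155 CPM. The other higher markers were Tff3 and Fcgbp. Muc2 and Clca1 were tested and not called (edgeR adjusted p = 0.697 and 0.497), and Zg16 and Agr2 had too few counts to test. The sum therefore mainly follows Spink4 and does not speak for all goblet cell markers. Among tuft cell markers 1 of 2 tested was higher (sum 142 to 156 CPM in control, 182 to 219 CPM in OE-labelled libraries). Of 6 Paneth cell markers, 4 were at 0 in all libraries (Lyz1, Defa24, Defa17 and Ang4), and Itln1 had at most 2 counts. Mmp7, the only Paneth cell marker tested, was called higher. Stem cell markers summed to 50.2 to 55.8 CPM in control organoids and 53.5 to 78.2 CPM in OE-labelled organoids, with 1 of 5 tested higher. Of 11 enterocyte markers, 6 were at 0 in all libraries (Alpi, Apoa1, Apoa4, Sis, Anpep and Krt20), while Vil1, a protein of the epithelial brush border, rose from 68.6 ± 0.545 to 108 ± 11.5 CPM (SD, n = 3, with an adjusted p of 0.0022 by edgeR), and Apob was called lower. Fibroblast and endothelial lists summed to at most 1.41 CPM in any library, and the colonocyte list was at 0. Of 7 immune markers 4 were at 0, and Csf1r alone was tested. Csf1r was called higher, at 30.6 ± 2.60 CPM in control organoids and 49.1 ± 5.86 CPM in OE-labelled organoids (SD, n = 3, log2 ratio 0.68, adjusted p = 0.0061 by edgeR), with no overlap. The part of these cell type markers in the changes above was not tested.

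Some counts can include reads of other genes. Etfb shared 7.97% of the 50-base stretches in the last 300 bases of its longest coding transcript with the overlapping gene Gm45233, and 4 of its 6 counts were fractional. Acsl3 overlaps Utp14b on the same strand, and 2 of its 6 counts were fractional. Acaa1a shared 40.2% of such stretches with its paralogue Acaa1b, Eci1 11.6% with a repeat found in many genes, and Acot2 0.797% with a gene model. No such stretch was shared between Acot1 and Acot2. Oxct1, Acadvl, Hadha, Pparg and Acsl5 overlap genes on the opposite strand, and the strand setting of the counting is not given in the sources used here.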

How the data were processed

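Per the labels' protocols, libraries were made from 500 ng of total RNA with a QuantSeq 3′ forward kit, whose reads lie near the polyadenylated end, so that counts were not divided by transcript length. The submitters' processing notes name STAR, HTSeq and the builds mm10 and GRCm38. The deposited values are estimated counts for each gene, not normalized by the authors; of these 2843 values (3.09% of those above 0) were fractional. They were rounded for count tests. All value columns were matched to samples by library name. OE-labelled and control libraries (3 each) were compared by quasi-likelihood F tests in edgeR 4.0.16 (R 4.3.3), using filterByExpr, TMM factors, no covariate and Benjamini-Hochberg adjustment over 10687 genes. CPM used the unrounded counts. SE was taken as the log2 fold change over the root of its F statistic. GENCODE M21 (GRCm38), matched by gene ID for 51989 genes, gave positions and GC content.

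The alternatives were DESeq2 1.42.0, limma-voom (limma 3.58.1) with a variance per group, other scalings and filters, equal depth, a GC offset (loess, span 0.5), a replicate block and each library left out. The tests were run on simulated counts first. The genes and lists were chosen with earlier results of these data known. All 39 genes are named, with up to 4 higher and 4 lower genes of the further pathway list by smallest p, of which 1 is not reported here. No molecular identifiers are named, so reads may repeat molecules, and detection floors cover counting error only.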

Additional observations from a re-analysis of the deposited data

How the results depend on the processing

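Of 272 values of the 17 called genes under 16 alternatives, 223 stayed called in the same direction, 49 missed the threshold and 0 changed sign. DESeq2 called 9 of the 32 tested genes (5 higher, 4 lower), beside 2096 of all 10687 tested genes (1059 higher, 1037 lower). The edgeR fit described first called 17 and 3118. Of the further pathway list DESeq2 called 11 genes higher. Leaving out single libraries gave 8 to 16 called genes of the 39 (5 to 11 higher, 3 to 7 lower) and 1748 to 3532 called genes in all (1033 to 1959 higher, 715 to 1731 lower). The number of genes tested in these fits was 10838 to 10966. For the further pathway list these fits gave 10 to 21 calls (10 to 18 higher, 0 to 4 lower). Of the 39 genes, 11 were called without control replicate 1, 8 without control replicate 2 and 9 without control replicate 3. Limma-voom with a variance per group called the same 17 genes.

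The median of the 32 genes was 0.061 with DESeq2 size factors in edgeR, 0.061 with DESeq2, 0.15 with library totals, 0.069 without a count filter, and 0.052 to 0.17 when single libraries were left out. The all-gene medians moved as well. In the same order they were -0.0030, -0.0032, 0.089, -0.054 (over 18991 genes), and 0.0013 to 0.047. The edgeR fit described first gave 0.10 for the 32 genes and 0.041 for all tested genes. A replicate block in the model gave the same 17 genes and changed no call among the 32 (3112 genes in all, 18 of the further pathway list). No label ties equal replicate numbers to a shared culture, and deviations of equally numbered libraries correlated at 0.09, 0.02 and 0.06. With the replicate block and the GC offset together the median was 0.041, beside 0.013 over all tested genes. In that fit 12 genes of the further pathway list passed (11 higher, 1 lower), beside 2552 of all 10687 tested genes (1343 higher, 1209 lower). With the GC offset alone 15 of the list passed (14 higher, 1 lower), beside 2528 of all tested genes (1369 higher, 1159 lower).

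Sign changes were limited to 7 uncalled genes. With the GC offset they were Etfdh (0.078), Ppard (-0.046), Plin2 (-0.064), Acsl1 (0.090) and Acsl4 (0.0096). With the replicate block and the GC offset they were Etfdh (0.041), Ppard (-0.054), Plin2 (-0.064) and Acsl1 (0.089). Leaving out single libraries gave -0.49 to 0.14 for Etfdh, -0.041 to 0.20 for Ppard, -0.016 to 0.091 for Plin2, -0.24 to 0.078 for Acsl1, -0.056 to 0.20 for Acadsb and -0.050 to 0.20 for Cpt1a. The causes were not tested. Genes with fewer than about 10 counts per library, such as Ppara, cannot be compared at this depth.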
